A study of Homo sapiens with 31 samples.

Results

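The 10 aldehyde dehydrogenase genes described here are ALDH1A1, ALDH1A2, ALDH1A3, ALDH1B1, ALDH2, ALDH3A1, ALDH3A2, ALDH3B1, ALDH3B2 and ALDH7A1, of the 19221 genes with a value in the table of FPKM (the fragments of a gene per unit of its length and of the fragments mapped in the library). They were chosen by name, with their FPKM in these libraries known, so their levels and differences are given as a description without p-values. mRNA was sequenced from 31 libraries of cell lines that the study used as models of ovarian cancer. The study itself reports that A2780 was rated an unlikely line of high-grade serous ovarian cancer by genomic profile. It also calls the use of C13* open to question because of the origin of that line. A2780 is the untreated parent line (n = 8), and A2780 OlaR is a resistant strain raised from it by growth in rising amounts of olaparib, an inhibitor of PARP (n = 8). C13* is a cisplatin-resistant line, to which a lentivirus had brought a control shRNA (C13* shCON, n = 7) or an shRNA against CEBPB (C13* shCEBPB, n = 8). Both lines grew in the same medium with serum. A2780 OlaR is a single strain, and the number of shRNA sequences and of clones behind the shCEBPB libraries is not given in the labels. The study describes the libraries as biological replicates, 8 per sample unless stated otherwise. Neither it nor the labels say whether they came from separate cultures, so the spread between libraries may be technical. Libraries are named in the labels by codes that begin with C for A2780 OlaR, O for A2780, CS for shCON and R for shCEBPB, and the groups follow the titles. Library 1 of shCON has A2780 in its cell line field and C13* in its title, and was kept as shCON.

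Aldehyde dehydrogenases oxidize aldehydes to carboxylic acids with NAD or NADP. The ALDH1A enzymes turn retinaldehyde into retinoic acid, which acts on gene expression through the nuclear receptors RAR and RXR. ALDH2 clears acetaldehyde in mitochondria, while the ALDH3 enzymes oxidize medium- and long-chain aldehydes, many of them products of lipid peroxidation. High aldehyde dehydrogenase activity is widely used to sort tumor cells with stem-like properties, in ovarian cancer among others, and ALDH1A1 and ALDH1A3 are the members to which that activity is most often assigned.

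CEBPB, which encodes C/EBPβ, the target of the shRNA, had a median of 49.5 FPKM in shCEBPB (30.2 to 58.7) and of 85.4 in shCON (75.2 to 101), with no overlap. It was at 85.6 to 111 in A2780 (median 99.7) and at 97.1 to 127 in A2780 OlaR (median 113), which overlapped. The difference of the mean log2(FPKM + 1) was 0.16 in A2780 OlaR against A2780 (adjusted p = 0.0202 by limma). The study reports a pronounced increase of C/EBPβ in A2780 OlaR, by western blot and RT-qPCR. It also describes low C/EBPβ in A2780 and strong expression in C13* by western blot, while the median of mRNA here was higher in A2780 than in shCON. Over 13470 genes, the means of log2(FPKM + 1) of A2780 OlaR differed from those of its labelled parent A2780 by a median of 0.67, but from those of C13* shCON by 0.12. In 33.7% of these genes the difference between A2780 OlaR and A2780 was at least 1, compared with 0.512% between A2780 OlaR and shCON. Between shCEBPB and shCON the median was 0.54, and 26.9% of the genes differed by at least 1. Epithelial markers (EPCAM, CDH1, KRT8, KRT18, KRT19 and KRT5) summed to 85.1 to 93.3 FPKM in A2780, where KRT5 was listed at 0 in every library, and 3 of the 6 had a mean of at least 1 FPKM. The sum was 4150 to 5033 in A2780 OlaR and 3680 to 4190 in shCON, with all 6 markers at a mean of at least 1. It was 1262 to 1514 in shCEBPB, with KRT8 and KRT18 alone at that level. Means of KRT8 and KRT18 were higher in shCEBPB (882 and 535 FPKM) than in shCON (459 and 320). Those of KRT5 and KRT19 were 0.0134 and 0.0306 FPKM in shCEBPB, against 1530 and 1470 in shCON. Mesenchymal markers (VIM, CDH2, ZEB1, ZEB2 and FN1) summed to 857 to 899 FPKM in A2780, 350 to 378 in shCEBPB, 32.8 to 38.0 in shCON and 24.6 to 29.0 in A2780 OlaR. VIM made up most of the sums in A2780 and shCEBPB, with means of 809 and 342 FPKM. FN1 went the other way in A2780 (mean 0.524 FPKM, against 7.70 in A2780 OlaR). CDH2 was lower in shCEBPB (mean 7.56 FPKM) than in shCON (17.35). Müllerian markers (PAX8, WT1, SOX17, ESR1 and MUC16) summed to at most 9.74 FPKM in any library, and none of the 5 had a mean of 1 in A2780. Among markers of other cell types, the leukocyte gene PTPRC was at 75.7 to 103 FPKM in A2780 and at or near 0 elsewhere (at most 0.0144), and the 5 fibroblast genes summed to 336 to 396 in A2780 and to at most 23.2 in other groups, with COL1A2 listed at 0 throughout shCEBPB. COL3A1 made up most of the fibroblast sum in A2780 (mean 358 FPKM). COL1A1 had means of 17.4 FPKM in A2780 and 16.2 in shCEBPB. PDGFRB was highest in shCEBPB (mean 4.05 FPKM, against 0.119 in A2780). The endothelial genes PECAM1 and CDH5 summed to at most 2.28 FPKM in any library, with PECAM1 listed at 0 throughout A2780. In A2780 OlaR against A2780, olaparib resistance and a difference of the cells sequenced cannot be told apart. The same holds for knockdown of CEBPB in shCEBPB against shCON. The part of these markers in the levels below was not tested. In RNA from whole cultures, fewer cells that express a gene and less RNA per cell cannot be told apart either.

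ALDH1A1 and ALDH1A3, which make retinoic acid, differed in the place of A2780, which had the highest ALDH1A1 and the lowest ALDH1A3, while shCON was above A2780 OlaR and A2780 OlaR above shCEBPB in both. ALDH1A1 (chromosome 9 of hg38, 72900671 to 73080442, minus strand) was at 998 to 1127 FPKM in A2780 (median 1053). In A2780 OlaR it was at 0.116 to 0.382 FPKM (median 0.235), in shCON at 1.71 to 2.30 (median 1.89), and it was listed at 0 in all 8 shCEBPB libraries. No neighbours in this order overlapped, and A2780 alone was above 3 FPKM. The values of A2780 OlaR amount to 6 to 16 steps of FPKM, a step being the amount that low values of a gene are multiples of, so they rest on few fragments. The mean log2(FPKM + 1) fell by 9.74 in A2780 OlaR against A2780 (standard error (SE) 0.04, from limma, n = 8 and 8), and no fold is given against shCEBPB.

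ALDH1A3 (chromosome 15, 100877714 to 100916626, plus strand) was at 9.505 to 11.4 FPKM in A2780 (median 10.4) and at 418 to 443 in A2780 OlaR (median 428). It was at 529 to 548 FPKM in shCON (median 533) and at 10.2 to 12.5 in shCEBPB (median 11.4). The groups fell into a high pair, shCON above A2780 OlaR without overlap, and a low pair, shCEBPB and A2780, which overlapped. The mean of 537 ± 8.05 (SD, n = 7) in shCON was 47.3 times that in shCEBPB, 11.3 ± 0.800 (SD, n = 8), a difference of -5.45 on the log2(FPKM + 1) scale (SE 0.04). In A2780 OlaR the mean of 429 ± 8.14 (SD, n = 8) was 41.2 times that in A2780, 10.4 ± 0.610 (SD, n = 8), a difference of 5.24 (SE 0.03). ALDH1A3 shares 1715 exonic bp with its antisense gene ALDH1A3-AS1, and whether counting used the strand is not stated.

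ALDH1A2 (chromosome 15, 57953424 to 58497866, minus strand), the remaining retinaldehyde dehydrogenase of the ALDH1A group, stayed under 0.3 FPKM in every library. It was listed at 0 in 7 of 8 A2780 libraries and 1 of 7 shCON libraries, and the highest value, 0.256 FPKM in shCEBPB, amounts to 35 steps. Neighbouring groups overlapped throughout its order, and it passed the filter on low values in neither comparison. Its mean was 0.130 FPKM in shCEBPB and 0.0462 in shCON, whose libraries did not overlap. It shares 354 exonic bp with AQP9 and 209 with ALDH1A2-AS1, both on the opposite strand. ALDH1B1 (chromosome 9, 38392702 to 38398661, plus strand), a mitochondrial enzyme with acetaldehyde and retinaldehyde among its substrates, was at similar levels in the 4 groups. The range was 17.0 to 19.4 FPKM in A2780 (median 18.2), 13.6 to 19.8 in A2780 OlaR (median 18.2), 16.2 to 21.8 in shCEBPB (median 19.2) and 15.8 to 20.4 in shCON (median 17.9), and all groups overlapped. The differences were 0.09 in shCEBPB against shCON (SE 0.07) and -0.11 in A2780 OlaR against A2780 (SE 0.07), and each changed sign between library numbers 1 to 3 (-0.10 and -0.41) and 4 to 8 (0.20 and 0.07).

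**Figure D1:**
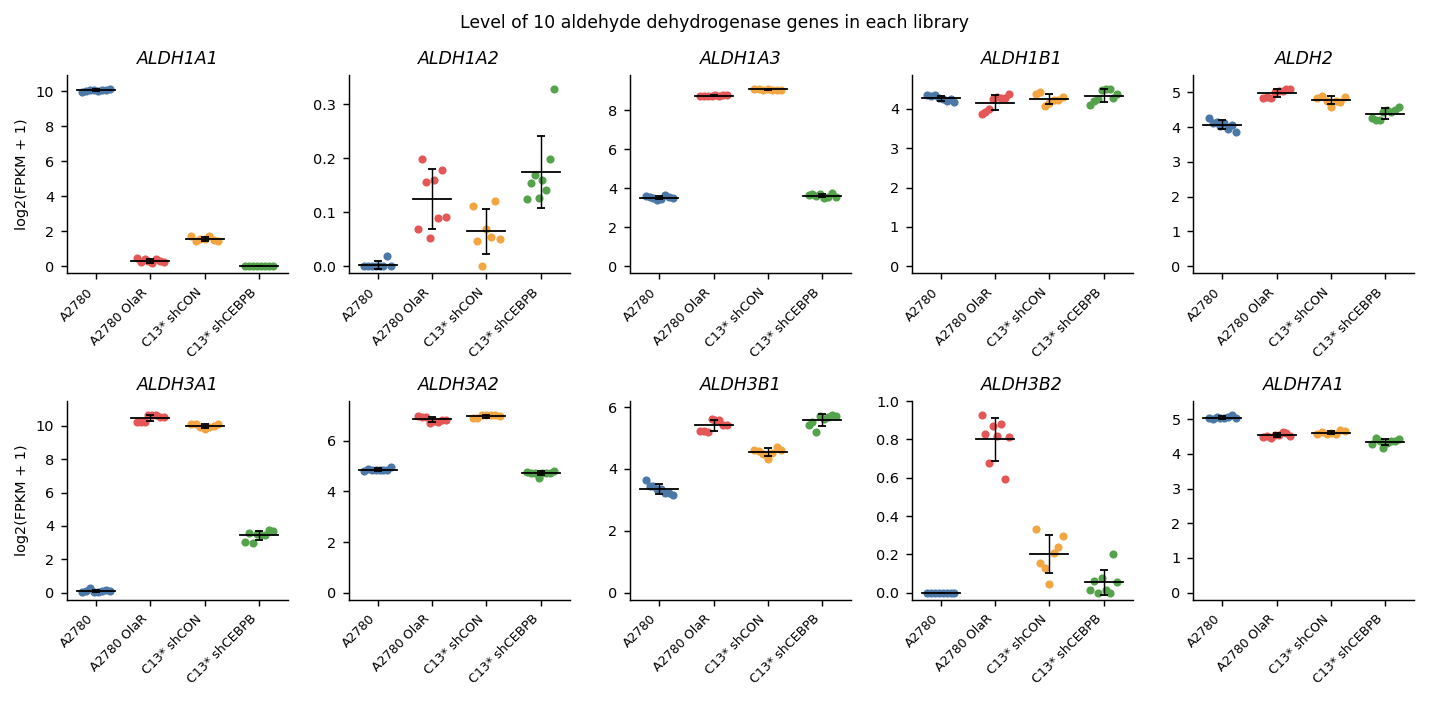
FPKM of the 10 aldehyde dehydrogenase genes on the log2(FPKM + 1) scale. Each point is a library, the line is the group mean, the bar is the SD (n = 8, 8, 7 and 8 from left to right), and each panel has its own axis. ALDH1A1 was high in A2780 alone, ALDH1A3, ALDH3A1 and ALDH3A2 were high in A2780 OlaR and shCON, and ALDH1B1 overlapped in all groups.

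The sequence before the transcription start is shown for ALDH1A1 and ALDH1A3, the retinaldehyde dehydrogenases among the members whose groups differed widely, and for ALDH1B1, whose groups overlapped. Sequences came from RefSeq (GRCh38.p14), which matched 7 of the 10 genes by symbol. ALDH2, ALDH3A1 and ALDH3B2 had no entry. Each window runs from 250 to 21 bases before the start, 5′ to 3′ on the strand of the gene, at chr9:72953074-72953303 (minus) for ALDH1A1, chr15:100879581-100879810 (plus) for ALDH1A3 and chr9:38392452-38392681 (plus) for ALDH1B1. The first and second windows lie within the annotated gene, since it also has transcripts that start further upstream, the third lies before the gene, and none of them overlaps an exon. Capitals mark CCAAT or its reverse complement ATTGG, the letters of the CCAAT box, a promoter element bound by NF-Y.
ALDH1A1: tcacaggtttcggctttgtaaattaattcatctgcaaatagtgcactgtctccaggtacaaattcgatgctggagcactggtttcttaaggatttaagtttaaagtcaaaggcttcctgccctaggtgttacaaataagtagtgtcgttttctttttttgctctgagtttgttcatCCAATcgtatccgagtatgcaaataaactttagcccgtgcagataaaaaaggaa
ALDH1A3: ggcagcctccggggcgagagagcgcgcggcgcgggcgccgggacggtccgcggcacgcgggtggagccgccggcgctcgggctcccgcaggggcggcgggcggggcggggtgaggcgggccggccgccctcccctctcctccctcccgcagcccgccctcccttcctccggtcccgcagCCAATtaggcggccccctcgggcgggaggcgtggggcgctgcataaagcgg
ALDH1B1: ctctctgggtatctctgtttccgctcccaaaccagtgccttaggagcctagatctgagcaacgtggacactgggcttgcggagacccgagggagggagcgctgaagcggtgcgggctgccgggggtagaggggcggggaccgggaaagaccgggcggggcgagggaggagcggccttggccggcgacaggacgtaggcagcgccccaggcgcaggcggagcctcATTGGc

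CCAAT lay 74 to 70 bases before the start in ALDH1A1 and 71 to 67 in ALDH1A3, and on the minus strand 26 to 22 bases before it in ALDH1B1, while 30.7% of 35116 windows of this length held it on either strand. The windows differed in base composition, with 38.3% G and C in ALDH1A1, 82.2% in ALDH1A3 and 69.1% in ALDH1B1, against a median of 57.8% over all windows (33.9% to 78.3% from the 5th to the 95th percentile). The GC box GGGCGG, which is in lower case above, occurred 6 times in ALDH1A3, 2 times in ALDH1B1 and not in ALDH1A1, counting both strands, and 40.0% of windows held it. The letters TTGCNNAA, a core of the C/EBP motif, were in the window of ALDH7A1 alone among the 7 matched genes, at 246 to 239 bases before the start, and in 8.53% of all windows. TGACNNNGC, a core of the antioxidant response element, and TATAAA, the TATA box, were in none of the windows of the 7 genes and in 9.96% and 10.4% of all windows. The 2 windows of ALDH3A2 were at 54.8% and 74.3% G and C, and those of ALDH3B1 at 63.5% and 67.8%. A match of letters is a description of the window and not a binding site.

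ALDH3A1 and ALDH3A2 lie near each other on chromosome 17 and were high in the same groups as ALDH1A3. ALDH3A1 (19737984 to 19748943, minus strand), a cytosolic enzyme best known from cornea and stomach, was at 1197 to 1602 FPKM in A2780 OlaR (median 1481) and at 890 to 1100 in shCON (median 1013). It was at 6.81 to 12.7 FPKM in shCEBPB (median 10.2) and at 0.0269 to 0.184 in A2780 (median 0.0706), where the values amount to 2 to 12 steps. No neighbours in this order overlapped. The mean of 1019 ± 82.5 (SD, n = 7) in shCON was 103 times that in shCEBPB, 9.94 ± 2.05 (SD, n = 8), a difference of -6.56 on the log2(FPKM + 1) scale (SE 0.11). In A2780 OlaR against A2780 the difference was 10.36 (SE 0.07), with a mean of 1421 ± 187 (SD, n = 8) in A2780 OlaR, and it reached 14.23 with a pseudocount of 0.01. ALDH3A1 shares 98 exonic bp with an antisense lncRNA.

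ALDH3A2 (19648136 to 19685760, plus strand), the fatty aldehyde dehydrogenase that is deficient in Sjögren-Larsson syndrome, was expressed in all groups. It was at 118 to 129 FPKM in shCON (median 128) and at 105 to 124 in A2780 OlaR (median 113), which overlapped. It was at 27.0 to 30.4 FPKM in A2780 (median 28.1) and at 22.1 to 26.8 in shCEBPB (median 25.6), and these did not overlap. The level in shCON was 4.94 times that in shCEBPB, and the level in A2780 OlaR was 4.07 times that in A2780, with differences of -2.26 (SE 0.04) and 1.99 (SE 0.04) on the log2(FPKM + 1) scale.

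ALDH3B1 and ALDH3B2 oxidize lipid-derived aldehydes at membranes. By median, the groups of ALDH3B1 came in the order of ALDH1A2, and those of ALDH3B2 in the order of ALDH3A1 and ALDH2. ALDH3B1 (chromosome 11, 68008578 to 68029282, plus strand) was at 35.9 to 52.7 FPKM in shCEBPB (median 49.5) and at 35.6 to 47.7 in A2780 OlaR (median 42.1), which overlapped. It was at 19.1 to 24.98 FPKM in shCON (median 23.2) and at 8.01 to 11.6 in A2780 (median 9.16), each apart from its neighbours. It was the member called higher in shCEBPB than in shCON with all libraries and the filter on low values (1.028, SE 0.08), and it was also higher in A2780 OlaR than in A2780 (2.06, SE 0.08). ALDH3B2 (chromosome 11, 67662155 to 67681224, minus strand) was at 0 in each of the 8 A2780 libraries and at 0.506 to 0.902 FPKM in A2780 OlaR (median 0.769). Its median was 0.154 FPKM in shCON (0.0331 to 0.259) and 0.0249 in shCEBPB (0 to 0.148), which overlapped, and it passed the filter on low values in neither comparison. ALDH3B1 and ALDH3B2 share 35 windows of 50 bases in their transcripts, 0.516% and 0.929% of the windows of each.

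ALDH2 and ALDH7A1 differed least among the members with a called difference. ALDH2 (chromosome 12, 111766887 to 111817532, plus strand) was at 27.3 to 33.4 FPKM in A2780 OlaR (median 31.7), 22.7 to 29.0 in shCON (median 26.0), 17.3 to 22.8 in shCEBPB (median 20.7) and 13.6 to 18.2 in A2780 (median 16.0). Each group overlapped with its neighbours in this order, and the difference was -0.38 in shCEBPB against shCON (SE 0.07) and 0.91 in A2780 OlaR against A2780 (SE 0.06). ALDH2 shares 680 exonic bp with a second annotated gene of the same strand, between which counting could split reads. ALDH7A1 (chromosome 5, 126531200 to 126595362, minus strand), an enzyme of lysine breakdown, was at 31.3 to 33.8 FPKM in A2780 (median 32.0), above shCON at 22.6 to 24.9 (median 23.3) and A2780 OlaR at 21.1 to 23.6 (median 22.2), which overlapped. It was lowest in shCEBPB, at 17.0 to 20.97 FPKM (median 19.6). The differences were -0.27 in shCEBPB against shCON (SE 0.04) and -0.51 in A2780 OlaR against A2780 (SE 0.03), and 350 windows of 50 bases in its transcripts (1.84%) also occur in other transcripts, most of them in the pseudogene ALDH7A1P1.

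The study asked which genes changed with knockdown of C/EBPβ and with olaparib resistance. Genes were tested with limma on log2(FPKM + 1) and called at an adjusted p under 0.05 (Benjamini-Hochberg over all genes tested). The adjusted p printed for genes other than the members sets a difference against the spread between libraries only. The lists of these genes were also chosen with earlier results known, so these values are a description. In shCEBPB against shCON, 8 of the 10 members were tested and 7 were called, 1 higher and 6 lower, where 84.7% of 12006 genes were called (38.9% higher and 45.7% lower). Groups did not overlap in 6 of the 8, as in 66.0% of all genes tested, and 5 were called with a difference of at least 1 on the log2 scale, as were 29.5% of all genes. In A2780 OlaR against A2780, 8 members were tested and 7 were called, 5 higher and 2 lower, where 89.8% of 12458 genes were called (40.1% higher and 49.7% lower). Groups did not overlap in 7 of the 8, as in 74.1% of all genes tested, and 5 were called with a difference of at least 1, as were 35.7%. The members were chosen with these values known, so these counts say nothing about the family. The median difference of the members tested was -0.97 in shCEBPB against shCON, or -0.38 without ALDH1A1, which was listed at 0, and 1.45 in A2780 OlaR against A2780, while the medians of all genes tested were -0.07 and -0.12. The comparisons share no library. Between A2780 OlaR and shCON, which were not compared by the study, libraries overlapped in ALDH1A2, ALDH1B1, ALDH2, ALDH3A2 and ALDH7A1. The share of all genes that overlap between these groups was not computed, so this says nothing about the family. ALDH1A3 and ALDH1A1 were higher in shCON, by 0.32 and 1.24 on the log2(FPKM + 1) scale, and ALDH3A1, ALDH3B1 and ALDH3B2 were higher in A2780 OlaR, by 0.47, 0.86 and 0.60, all without overlap.

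**Figure D2:**
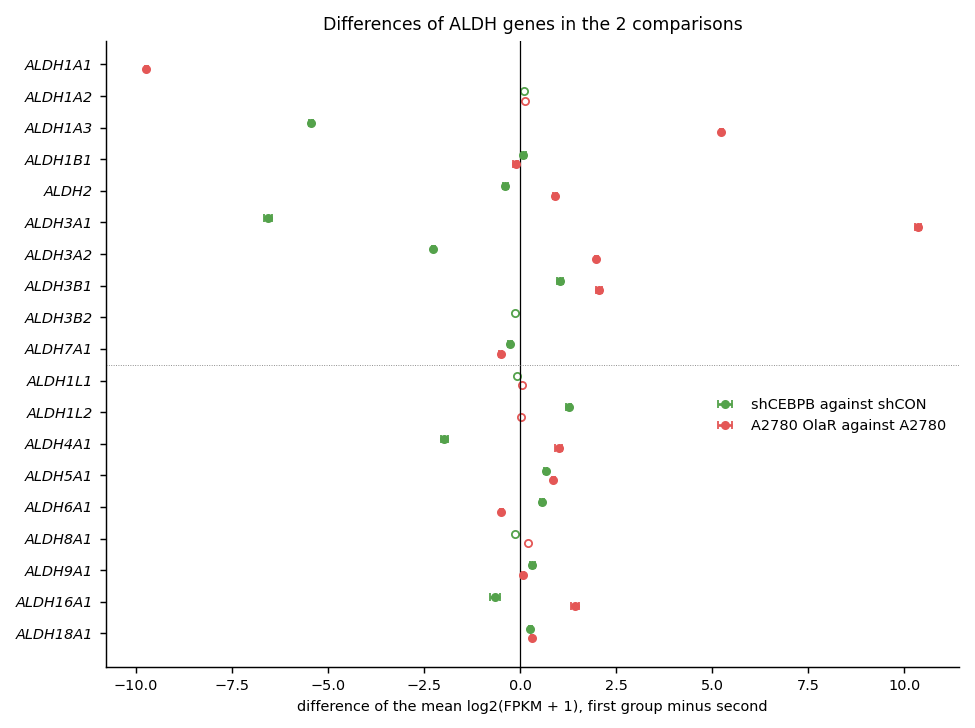
Differences of the mean log2(FPKM + 1) of 19 ALDH genes, the 10 members above the dotted line and the 9 other ALDH genes below it, with shCEBPB minus shCON in green and A2780 OlaR minus A2780 in red. Bars are SEs from limma, open points are genes that did not pass the filter on low values, and genes listed at 0 in a whole group are not drawn for that comparison. ALDH1A3, ALDH3A1 and ALDH3A2 lie left of 0 in shCEBPB and right of 0 in A2780 OlaR, and ALDH3B1 lies right of 0 in both.

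The summed FPKM of 19 ALDH genes, the 10 members and 9 others, was 1282 ± 32.7 in A2780, 2230 ± 202 in A2780 OlaR, 1912 ± 88.4 in shCON and 297 ± 6.75 in shCEBPB (mean ± SD, n = 8, 8, 7 and 8). The members held 91.6%, 93.2%, 92.8% and 51.4% of these sums. ALDH1A1 alone made up 82.6 ± 0.722% in A2780. In A2780 OlaR, ALDH3A1 made up 63.5 ± 2.72% and ALDH1A3 19.4 ± 1.57%, and in shCON they made up 53.2 ± 1.90% and 28.1 ± 1.34%. The leading gene in shCEBPB held less than the leading gene of each other group. It was ALDH18A1, an enzyme of proline synthesis, with 22.4 ± 1.67%, before ALDH3B1 with 15.9 ± 1.69% and ALDH9A1, which acts in carnitine synthesis, with 11.9 ± 1.53%.

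**Figure D3:**
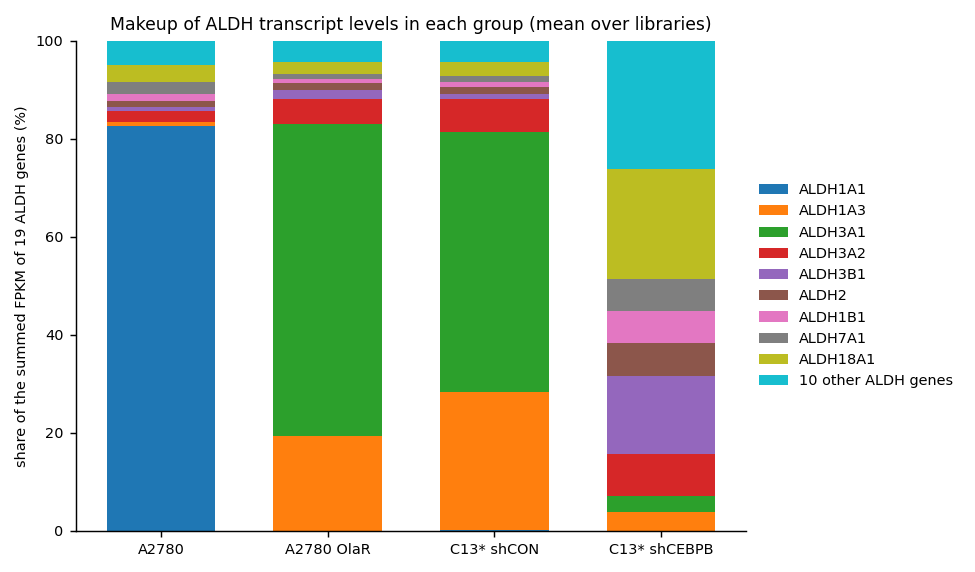
Share of each gene in the summed FPKM of 19 ALDH genes, in percent, as the mean over the libraries of each group (n = 8, 8, 7 and 8). ALDH1A1 fills most of the bar in A2780 (82.6%), ALDH3A1 and ALDH1A3 most of it in A2780 OlaR and shCON, and ALDH18A1 (22.4%) is the largest share of a single gene in shCEBPB.

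Of the 9 other ALDH genes, 7 were tested in shCEBPB against shCON, and all 7 were called, 5 higher and 2 lower, where 84.7% of all genes tested were called, with a median difference of 0.31. ALDH4A1, which acts in proline breakdown, was lower (mean 3.91 against 18.2 FPKM, difference -1.98, adjusted p = 1.82e-13 by limma), as was ALDH16A1 (-0.66, adjusted p = 0.000139 by limma). The folate enzyme ALDH1L2 was higher (1.66 against 0.1004 FPKM, difference 1.26, adjusted p = 4.28e-12 by limma), as were ALDH5A1 (0.66), ALDH6A1 (0.56), ALDH9A1 (0.31) and ALDH18A1 (0.26). In A2780 OlaR against A2780, 6 were tested and 5 were called, 4 higher and 1 lower, where 89.8% of all genes tested were called, with a median of 0.58. ALDH16A1 (27.5 against 9.46 FPKM, difference 1.43, adjusted p = 4.64e-11 by limma), ALDH4A1 (1.0), ALDH5A1 (0.86) and ALDH18A1 (0.30) were higher, and ALDH6A1, which acts in valine breakdown, was lower (-0.49). ALDH9A1 was not called (0.07, adjusted p = 0.0606 by limma).

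Genes of retinoid transport, metabolism and response, the pathway of the ALDH1A enzymes, were called at about the share of all genes. In shCEBPB against shCON, 22 of the 29 listed were tested and 19 were called (84.7% of all genes tested were), 9 higher and 10 lower, with a median difference of -0.11 (-0.09 without LRAT, which was listed at 0 in shCEBPB). STRA6, the cell-surface receptor for retinol-binding protein, was higher in shCEBPB (21.6 against 0.758 FPKM, difference 3.68, adjusted p = 1.71e-19 by limma), as was RDH10 (14.4 against 4.61, difference 1.46), a retinol dehydrogenase that makes the retinaldehyde on which ALDH1A enzymes act. The retinoid-responsive genes RARRES1 (2.51 against 0.00835 FPKM, difference 1.80) and RARRES2 (3.99 against 0.593, difference 1.64) and the retinol dehydrogenase RDH5 (1.20) were higher too. CRABP2, which carries retinoic acid to its receptors, was lower (5.99 against 88.9 FPKM, difference -3.70), as were the fatty acid-binding protein FABP5 (27.9 against 144, difference -2.33) and the dehydrogenase DHRS9 (difference -2.85). RARRES3, which is retinoid-responsive like RARRES1 and RARRES2, was lower (-3.52), and LRAT, which stores retinol as esters, had a mean of 1.92 FPKM in shCON. In A2780 OlaR against A2780, 20 were tested and 18 were called (89.8% of all genes tested were), 9 higher and 9 lower, with a median of -0.11 (-0.15 without RBP4, which was listed at 0 in A2780). FABP5 (120 against 0.0184 FPKM, difference 6.89), CRABP2 (119 against 11.6, difference 3.25), RXRA, which encodes a partner of the retinoic acid receptors (2.27), RARRES3 (1.98) and DHRS4 (1.60) were higher. RDH10 was lower (2.998 against 185 FPKM, difference -5.54, adjusted p = 4.24e-27 by limma), as were the retinoic acid hydroxylases CYP26B1 (-3.36) and CYP26A1 (-2.25) and the receptor RARB (-1.27). RBP4, which carries retinol in blood, had a mean of 9.28 FPKM in A2780 OlaR. A2780, the group with the highest ALDH1A1, also had the highest mean RDH10, CYP26A1, CYP26B1 and RARB of the 4 groups, while the groups with the highest ALDH1A3 had the highest CRABP2 and FABP5. STRA6, RBP4, RDH5, DHRS4, RARRES1 and RARRES2 had their highest mean in shCEBPB, where ALDH1A1 was listed at 0 and ALDH1A3 was low. A link between these genes and the members was not tested.

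Of 8 alcohol dehydrogenase and aldehyde oxidase genes, ADH5 and AOX1 were tested. ADH5, the glutathione-dependent formaldehyde dehydrogenase, was lower in shCEBPB than in shCON (45.6 against 70.3 FPKM, difference -0.62) and lower in A2780 OlaR than in A2780 (63.9 against 94.5, difference -0.56). AOX1, an aldehyde oxidase, was lower in shCEBPB (0.499 against 3.79 FPKM, difference -1.68) and higher in A2780 OlaR (1.58 against 0.0254, difference 1.33).

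**Figure D4:**
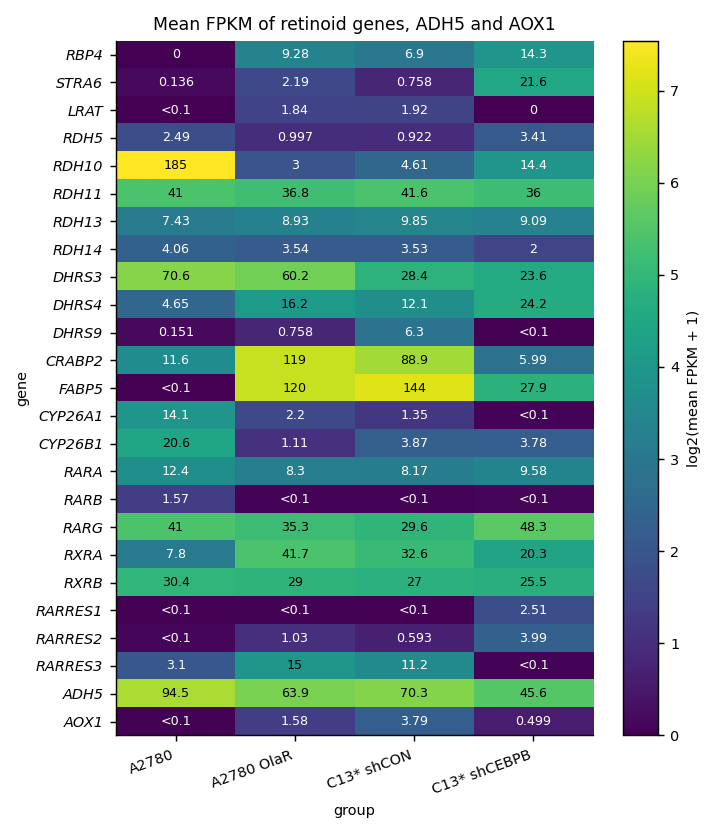
Mean FPKM of the retinoid genes with a mean of at least 1 in any group, and of ADH5 and AOX1, printed in each cell and colored by log2(mean FPKM + 1), with genes in rows and groups in columns (n = 8, 8, 7 and 8). RDH10 stands at 185 in A2780 against 2.998 to 14.4 in the other groups, and CRABP2 and FABP5 are highest in A2780 OlaR and shCON.

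The genes whose pattern over the 31 libraries was most like a member are given for members whose group means spanned at least 3 on the log2(FPKM + 1) scale, with the root mean square difference after centring as the measure. For ALDH1A1 they were the matrix metalloproteinases MMP10 (0.33) and MMP1 (0.37) and ANKRD1 (0.49). For ALDH1A3 they were RAC2 (0.15), WFDC2 (0.16) and the epithelial transcription factor EHF (0.20), which were under 0.1 FPKM in A2780 and shCEBPB. RAC2 had means of 0.0360 FPKM in A2780 and 42.6 in A2780 OlaR, against 10.4 and 429 for ALDH1A3. The likeness therefore depends on the 1 added before the logarithm. For ALDH3A1, FXYD3 (0.90) and ZBTB7C (1.11) were among them, at larger distances than for ALDH1A1 and ALDH1A3. Of the member pairs that include ALDH1A1, ALDH1A3 or ALDH3A1, the closest was ALDH1A3 with ALDH3A2 (1.61), followed by ALDH1A3 with ALDH3A1 (1.98).

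Levels also differed within groups between libraries numbered 1 to 3 and 4 to 8 in the library codes, where shCON has no number 6. Among members with a group mean of at least 1 FPKM, the number ranges did not overlap in 7 of 7 in A2780 OlaR, 3 of 7 in shCEBPB, 2 of 7 in A2780 and 0 of 8 in shCON, compared with 57.2%, 53.4%, 20.7% and 4.77% of all genes at that level. In A2780 OlaR, ALDH3A1 was at 1197 to 1214 FPKM in libraries 1 to 3 and at 1469 to 1602 in libraries 4 to 8. ALDH3A2 had the opposite order there, with 123 to 124 and 105 to 114 FPKM. ALDH3B1 was at 35.6 to 36.5 and 42.0 to 47.7 FPKM in A2780 OlaR and at 35.9 to 44.5 and 48.1 to 52.7 in shCEBPB, and in A2780 it was higher in libraries 1 to 3 (9.90 to 11.6) than in 4 to 8 (8.01 to 9.17). What the numbers stand for is not given in the labels.

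**Figure D5:**
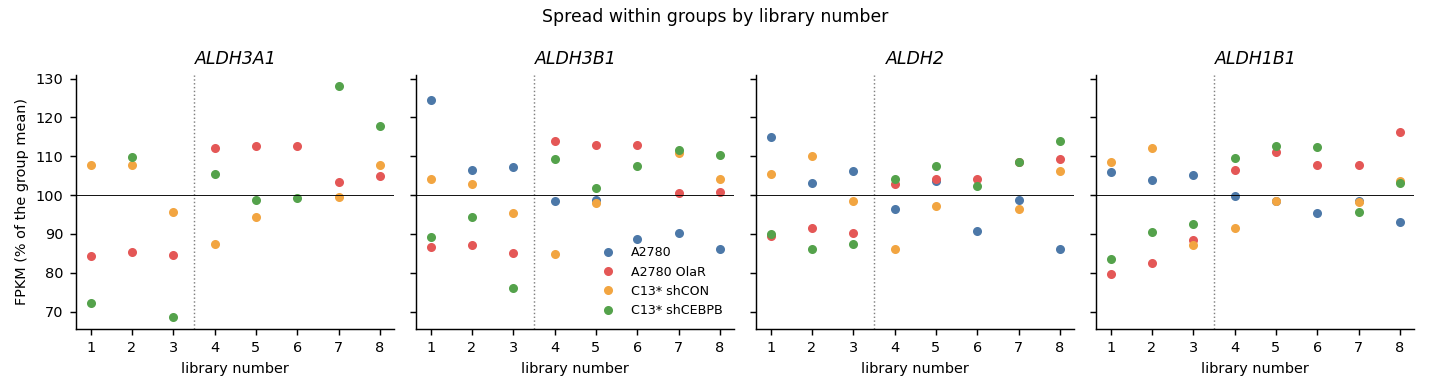
FPKM of ALDH3A1, ALDH3B1, ALDH2 and ALDH1B1 in each library as a percentage of its group mean, by the number in the library code, with a dotted line between 3 and 4. A2780 is left out for ALDH3A1, where its FPKM was under 0.2. In A2780 OlaR all 4 genes were lower in libraries 1 to 3 than in 4 to 8.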

How the data were processed

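RNA libraries were sequenced with 150-bp paired-end reads, mapped to hg38 with TopHat and counted with HTSeq by the authors, who tested counts with edgeR. FPKM is the unit of the single table that the authors deposited. The tool and annotation behind the FPKM, and whether counting used the strand, are not given in the sources used here. Of 19225 rows, 4 with 2 repeated symbols were left out, 27 carry a date as symbol, and 1212 genes were at 0 throughout.

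FPKM give no read totals. Relative depth, from the steps of low values (92.1% of 12579 within 0.1 of a whole step), was 0.865 to 1.23, a 1.42-fold range, and FPKM summed to 417556 to 454578 per library. Absolute depth is unknown, so no counting error is given.

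Differences were computed with limma 3.58.1 in R 4.3.3 (lmFit, eBayes with a trend, two-sided) on log2(FPKM + 1), which understates changes of low genes, using only the groups compared. A gene entered the test where the number of its libraries with FPKM of 1 or more reached the size of the smaller group. The fit was tested on simulated data. Python 3.11.15 with numpy 2.4.6, pandas 2.3.3 and matplotlib 3.10.9 was used for the rest. Positions are from GENCODE 44 and promoter windows from RefSeq, both on the build of the files.

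The members and lists were chosen with earlier results of these data known. The text names all members and other ALDH genes, of each further list at most 5 called genes per direction and comparison, by size of the difference, and genes at 0 in a group, the 3 most alike genes, CEBPB and cell type markers. A gene that this rule names is not reported here. Groups follow the titles. Alternatives were pseudocounts of 0.1 and 0.01, no filter and a filter at 5, 1 fit of all 4 groups, quantile normalization, a common sum, replicate blocks, the library ranges, shCON without replicate 1, and a fold of at least 2.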

Additional observations from a re-analysis of the deposited data

Results flagged for a closer look

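In 6 of 38 sets of a member and a group, the highest or lowest library stood apart from the rest by Dixon's test. Chance does so in about 1 in 20 sets where values are normally distributed. That rate does not apply to values near 0 that move in steps, as in ALDH1A2 and ALDH3B2. ALDH1A2 was at 0.0138 FPKM in A2780 replicate 7, with 0 in the others, and at 0.256 in shCEBPB replicate 8 (group median 0.116). ALDH3A2 was at 30.4 FPKM in A2780 replicate 8 (median 28.1) and at 22.1 in shCEBPB replicate 4 (median 25.6). ALDH3B2 was at 0.148 FPKM in shCEBPB replicate 7 (median 0.0249), and ALDH7A1 was at 33.8 in A2780 replicate 7 (median 32.0).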

How the results depend on the processing

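Of 183 differences of single members under the alternatives, 65 kept their value exactly (under another filter, a fit of all 4 groups or a block, which mostly leave the group means as they are), 86 moved by less than the spread between libraries and 32 by more, and no called member changed direction. ALDH1B1, called in neither comparison, was called with libraries 4 to 8 alone in shCEBPB against shCON, and with libraries 1 to 3 alone or a common sum in A2780 OlaR against A2780. The differences of ALDH1A1 and ALDH3A1 depend on the pseudocount where a group is near 0, to -12.10 and 14.23 with 0.01 in A2780 OlaR against A2780, and ALDH1A1, listed at 0 in shCEBPB, went from -1.56 to -7.61 against shCON. Members called higher in shCEBPB rose to 2 with libraries 4 to 8 alone and to 2 without a filter, with ALDH1B1 and ALDH1A2 added in turn. Without a filter, 4 of 9 other ALDH genes were lower in shCEBPB, as were 4 of 7 alcohol dehydrogenase and aldehyde oxidase genes (4 called), and 2 of the latter were lower in A2780 OlaR. Of all 17334 genes in shCEBPB, 12746 were then called, 7194 of them lower, and 7613 of 17638 were lower in A2780 OlaR. Genes added this way have low FPKM, such as ALDH1L1 (mean 0.00406 in shCEBPB against 0.0563 in shCON). With a filter at 5, 1 alcohol dehydrogenase or aldehyde oxidase gene was called in shCEBPB (1 lower), where 7991 of 9483 genes were called, and 1 in A2780 OlaR (0 higher). With a fold of at least 2, calls in shCEBPB were 5 members (1 higher, 4 lower), 2 other ALDH genes (1 higher, 1 lower), 11 retinoid genes (5 higher, 6 lower), 1 alcohol dehydrogenase or aldehyde oxidase gene (1 lower) and 3539 of all genes (1530 higher, 2009 lower). In A2780 OlaR they were 5 members (4 higher, 1 lower), 1 other ALDH gene (1 higher, 0 lower), 12 retinoid genes (8 higher, 4 lower), 1 alcohol dehydrogenase or aldehyde oxidase gene (0 lower) and 4446 of all genes (1936 higher, 2510 lower). The cause of these changes was not tested, other than that the filters and the fold set which genes can be called.

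Deviations from the group means did not go together in libraries with the same replicate number (Pearson's r across genes averaged -0.15 over 7 pairs in shCEBPB and shCON, -0.23 over 8 pairs in A2780 OlaR and A2780), so the numbers do not pair them. With a replicate block, 9885 genes were called in shCEBPB against shCON and 10960 in A2780 OlaR against A2780, compared with 10166 and 11190 without it, and 7 members in each as before. Without shCON replicate 1, 7 members were called in shCEBPB against shCON. FPKM near 0 rest on few fragments. That limits the precision of ALDH1A2, of ALDH3B2 outside A2780 OlaR, of ALDH1A1 in A2780 OlaR (6 to 16 steps) and of ALDH3A1 in A2780 (2 to 12). In A2780 OlaR, ALDH3B2 was at 45 to 100 steps.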
